A study of Rattus norvegicus with 25 samples.

Results

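The genes described here are 38 genes of the lysosome, the acidic compartment in which cells break down proteins, glycans and lipids, measured by RNA-seq in the rat hippocampus. They were taken by name from a table of 34322 genes, as 12 proteases, 10 glycosidases, 3 sulfatases, 6 genes of lipid breakdown and sterol export, 5 membrane proteins, the growth factor precursor progranulin (Grn) and the transcription factor Tfeb. All 38 were in the table and all 38 passed the filter on low counts, among 21064 genes tested. The tissue came from adult male Sprague-Dawley rats of 6 to 7 weeks. The 25 libraries formed 5 groups of 5. Vehicle-sham had a sham operation and vehicle. Vehicle-CCI had controlled cortical impact (CCI), a piston blow to the exposed cortex above the hippocampus, and vehicle. The impact was combined with a thymus supplement in TD-CCI, with a thymus cytosolic factor in TCF-CCI and with a thymus nuclear factor in TNF-CCI, so that TNF names an extract here and not the cytokine. Doses, the interval between impact and sampling, and the hemisphere taken are not given in the sources used here. Nothing in the labels says that the 5 libraries of a group came from separate animals, so p-values measure the spread between libraries, which may be technical.

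Lysosomal hydrolases are made as precursors in the secretory pathway, tagged with mannose 6-phosphate, sorted to the lysosome and activated there at low pH. TFEB and its relatives bind a short palindrome, the E-box within the CLEAR element, upstream of many of these genes and can raise them together. In the brain all cells have lysosomes, and microglia, the resident phagocytes, carry especially large amounts of several cathepsins. Loss of single members causes storage diseases, among them mucopolysaccharidoses (Idua, Ids, Naglu, Gusb, Galns, Arsb), Niemann-Pick type C (Npc1, Npc2) and neuronal ceroid lipofuscinoses (Tpp1, Ppt1, Ctsd, Ctsf, Grn).

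Depth was 27.3 M to 44.9 M counts a library (M, 1e6; median, 32.8 M). Neuronal markers were present in every library. Slc17a7 lay between 468 and 1190 CPM (counts per M of the TMM-scaled library) and Rbfox3 between 86.3 and 217, neither particular to the hippocampus. Prox1, of the dentate gyrus, lay between 8.29 and 38.6 CPM. Vehicle-sham 2 stood apart: 25.63% of its counts lay on mitochondrial ribosomal RNA, against 2.18% to 17.26% in the other sham libraries, and its TMM factor was 0.645. In that library 20 of the 38 genes were lower than the mean of the other 4 sham libraries, down to 0.192 of it for Idua, and others were higher, up to 2.6 times for Ids. Calls against sham are also given without it.

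Promoter windows of 300 bases, from 250 before to 50 after the start of the gene, were available from RefSeq (GRCr8) for 32 of the 38 genes. The E-box CACGTG, which is its own reverse complement and so was searched on both strands at once, lay in 7 of the 32 windows (21.9%), against 6.42% of all 33469 windows. These 7 were the windows of Cd63, Ctsd, Ctsf, Gaa, Glb1, Idua and Lamp1. The longer CLEAR core TCACGTGA, which contains that E-box and is also its own reverse complement, was found in Ctsd and Lamp1 (6.25% of the 32, 0.777% of all windows). The motif GAGGAAGT, bound by the myeloid factor PU.1 and searched on both strands, lay in the windows of Ctsc, Ctss and Gla (9.38%, against 2.42% of all windows). Windows were also found for 117 genes of the related lists given further on, from the proton pump to autophagy. Of these 21.4% held the E-box, close to the share in the members, 12% the CLEAR core and 1.71% the PU.1 motif. The 4 stretches below are shown because they differ in their E-boxes, with 5 in Lamp1, 2 in Ctsd and 1 each in Cd63 and Glb1, and because the expression of these genes is given further on. They run 5′ to 3′ on the strand of the gene, and capitals mark the E-boxes. A match of letters is a description of the window and not a measured binding site.
Lamp1 (GRCr8 chr16:83075076-83075266, minus strand): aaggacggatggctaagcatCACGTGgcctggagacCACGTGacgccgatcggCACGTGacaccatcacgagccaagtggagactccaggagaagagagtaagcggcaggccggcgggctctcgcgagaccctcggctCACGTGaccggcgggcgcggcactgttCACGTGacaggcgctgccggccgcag
Ctsd (GRCr8 chr1:206968822-206968998, minus strand): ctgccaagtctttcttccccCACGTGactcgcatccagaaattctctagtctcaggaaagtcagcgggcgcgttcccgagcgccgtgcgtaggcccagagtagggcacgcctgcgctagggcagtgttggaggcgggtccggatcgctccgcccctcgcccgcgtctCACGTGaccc
Cd63 (GRCr8 chr7:1921934-1921979, plus strand): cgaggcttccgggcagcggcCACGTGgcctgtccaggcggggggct
Glb1 (GRCr8 chr8:122963598-122963643, plus strand): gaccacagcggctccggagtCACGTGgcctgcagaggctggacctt

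Levels per length, as RPKM (reads per kilobase of exon and M counts), set the order of the genes within a sample. In the sham group Ids, which removes sulfate from heparan and dermatan sulfate, came first at 133 ± 72.8 RPKM (SD, n = 5), a mean raised by Vehicle-sham 2. It was followed by the saposin precursor Psap at 123 ± 36 RPKM, the cysteine proteases Ctsl at 107 ± 32.9 and Ctss at 107 ± 22, and the membrane glycoprotein Lamp1 at 102 ± 30.4 RPKM. Their ranges of 1 SD about the mean overlapped. The least abundant were Gusb at 1.91 ± 0.182 RPKM and Ctsc at 1.22 ± 0.123 RPKM. In the 20 CCI libraries Psap (172 ± 64.5 RPKM), Ctss (171 ± 43.3) and the aspartic protease Ctsd (149 ± 47.8) came first, each within the others' SD, Ids ranked 8 at 86.5 ± 20.9 RPKM, and Ctsc was last at 2.72 ± 1.03 RPKM.

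The comparison of the mean of the 4 CCI groups with Vehicle-sham shows the average difference between injured and sham tissue, with supplement or without. Injury and supplement cannot be told apart in it, because 3 of the 4 groups had a supplement. Of the 38 genes 13 rose and 0 fell (edgeR quasi-likelihood test, adjusted p under 0.05), where 5.92% of all genes tested were called and 2.24% were called higher. At an unadjusted p under 0.05 there were 25, of which 23 were higher and 2 lower (Gla and Ids). Over all genes 24.7% reached it, and 9.68% were higher. The 13 were 7 of 12 proteases (Ctsa, Ctsc, Ctsd, Ctsh, Ctss, Ctsz, Lgmn), 2 of 10 glycosidases (Gusb, Naglu), 1 of 3 sulfatases (Galns), 1 of 6 lipid and sterol genes (Npc2), 1 of 5 membrane proteins (Laptm5) and Grn. The log2 fold changes of all 38 had a median of 0.44, with 34 above 0, against a median of 0.01 over all genes tested. By role the medians were 0.58 for proteases, 0.44 for glycosidases, 0.28 for lipid and sterol genes and 0.33 for membrane proteins. In whole tissue, fewer cells of a type and less RNA per cell cannot be told apart, and the same holds for more of either.

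The calls depended on Vehicle-sham 2. Without it edgeR called 14 genes in all (0.066%), of which 2 were lysosomal, Npc2 and the tetraspanin Cd63. The other 12 of the 13 then had edgeR adjusted p between 0.06 and 0.146, 36 of 38 genes lay above 0, and the median of the 38 was 0.36. Among the 13 the log2 difference itself was larger without that library in 9 and smaller in 4 (Ctsa, Naglu, Galns and Grn). Without Vehicle-sham 3 the members called were 5 (3.15% of all genes), and without Vehicle-sham 4 they were 8, of which 7 were higher and Ids lower (3.57%). Without Vehicle-sham 2 and 3 together they were 0 (0%), with 19 higher at an unadjusted p under 0.05. With a covariate for the mitochondrial rRNA share they were 3, Cd63, Ctsc and Npc2 (0.798%). Npc2 was called in each of the 25 fits that left out 1 library.

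**Figure D1:**
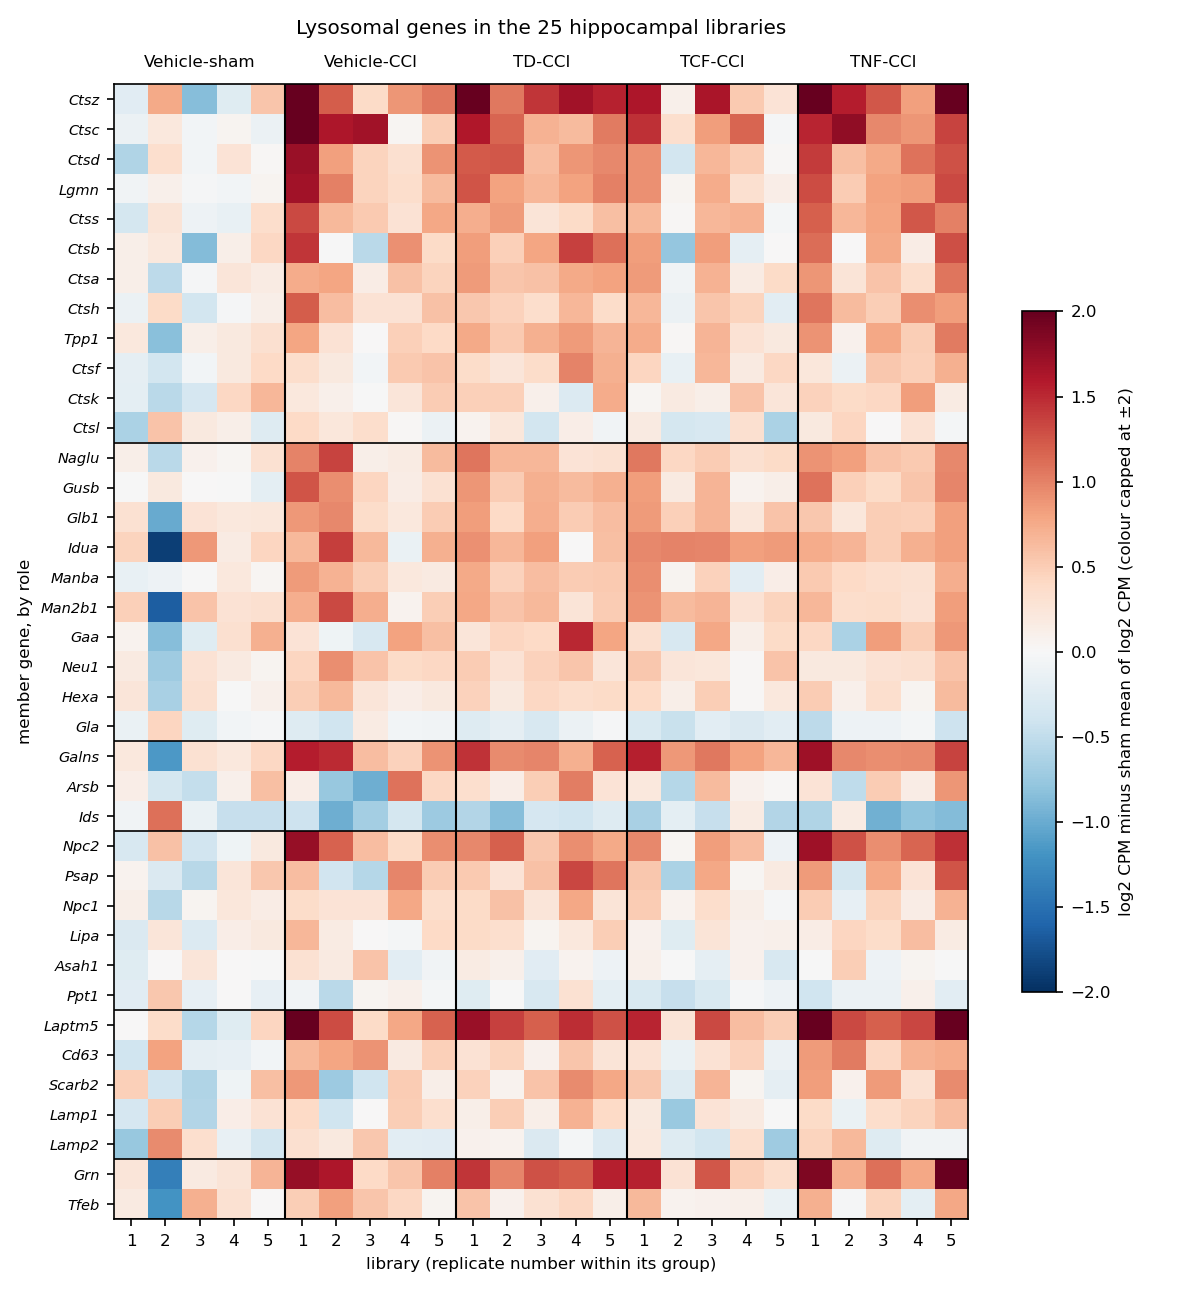
Log2 CPM of the 38 genes (vertical axis, grouped by role) in the 25 libraries (horizontal axis, by group), each minus the mean log2 CPM of the 5 sham libraries, with colour capped at 2 on either side. Ctsz, Ctsc, Laptm5, Galns and Grn are red across most CCI libraries, and Vehicle-sham 2 is the only blue sham library in Idua, Man2b1, Galns, Grn and Tfeb.

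**Figure D2:**
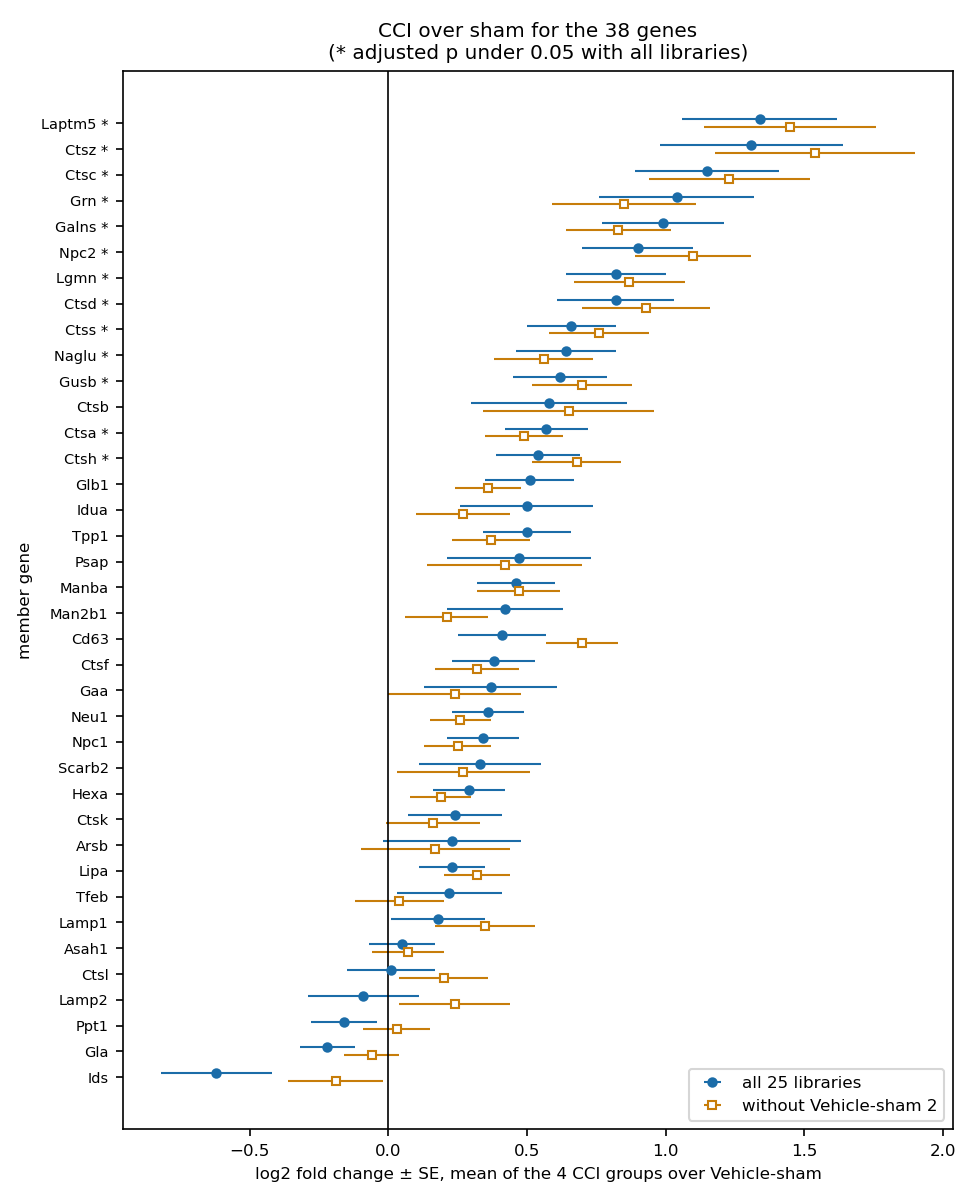
Log2 fold change, mean of the 4 CCI groups against sham (horizontal axis), for the 38 genes, as points with bars of 1 SE, with all 25 libraries and without Vehicle-sham 2; stars mark the 13 genes with an adjusted p under 0.05 with all libraries. Laptm5 is highest at 1.34, and Ids lowest at -0.62 with all libraries and -0.19 without Vehicle-sham 2.

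Among the proteases, legumain (Lgmn, chromosome 6, 121544048 to 121582495 of mRatBN7.2) is the asparaginyl endopeptidase that activates several cathepsins. Lgmn read 49.6, 55.7, 50.9, 50.2 and 53.7 CPM in Vehicle-sham 1 to 5. Lgmn in Vehicle-CCI read 166, 104, 70.7, 66 and 80.4 CPM, and in TD-CCI 124, 91.1, 82.6, 90.4 and 104 CPM. Lgmn in TCF-CCI read 97.7, 54, 86.7, 64.6 and 56.9 CPM, and in TNF-CCI 129, 74.1, 90.8, 92.3 and 130 CPM. The sham libraries were close together, and only TCF-CCI 2 lay among them, so that 19 of 20 CCI libraries were above every sham library. Lgmn rose by 0.82 ± 0.18 on the log2 scale (± SE), with an edgeR adjusted p = 0.0222, and without Vehicle-sham 2 the value was 0.87 (0.06). Cathepsin C (Ctsc, chromosome 1, 142028386 to 142059841), a dipeptidyl peptidase that activates granule proteases of immune cells, was the least abundant of the 38 per length. Ctsc read 6.81, 8.58, 7.1, 7.69 and 6.83 CPM in Vehicle-sham 1 to 5. Ctsc in Vehicle-CCI read 29.7, 22.5, 23.7, 7.57 and 10.4 CPM, and in TD-CCI 22.4, 16.5, 12, 11.4 and 15.2 CPM. Ctsc in TCF-CCI read 20.2, 9.31, 13.1, 16.5 and 7.27 CPM, and in TNF-CCI 21.2, 25.3, 14.3, 13.6 and 18.9 CPM. Vehicle-CCI 4 and TCF-CCI 5 lay within the narrow sham range and the other 18 CCI libraries above it. Ctsc rose by 1.15 ± 0.26 on the log2 scale (edgeR adjusted p = 0.0236) and had 1.23 without Vehicle-sham 2 (0.066). Genes with at least 18 of 20 CCI libraries above every sham library made up 0.949% of all genes tested, and 4 of the 38 were among them (Galns, Lgmn, Ctsc and Laptm5).

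Cathepsin D (Ctsd, chromosome 1, 197527467 to 197539343) is the main aspartic protease of lysosomes. Ctsd read 107, 204, 156, 196 and 165 CPM in Vehicle-sham 1 to 5. Ctsd in Vehicle-CCI read 534, 286, 221, 201 and 302 CPM, and in TD-CCI 378, 382, 249, 299 and 314 CPM. Ctsd in TCF-CCI read 304, 125, 257, 230 and 165 CPM, and in TNF-CCI 428, 245, 274, 342 and 391 CPM. Vehicle-CCI 1 was the highest library, and Vehicle-CCI 4, TCF-CCI 2 and TCF-CCI 5 overlapped the sham range. Ctsd rose by 0.82 ± 0.21 on the log2 scale (edgeR adjusted p = 0.0324), with 0.93 when Vehicle-sham 2 was left out (0.0704). Cathepsin S (Ctss, chromosome 2, 183089192 to 183114483) is a cysteine protease of microglia and other antigen-presenting cells that stays active at neutral pH. Ctss read 107, 164, 128, 123 and 175 CPM in Vehicle-sham 1 to 5. Ctss in Vehicle-CCI read 342, 214, 196, 167 and 233 CPM, and in TD-CCI 228, 246, 163, 178 and 207 CPM. Ctss in TCF-CCI read 214, 140, 218, 221 and 133 CPM, and in TNF-CCI 313, 217, 238, 323 and 276 CPM. Of the CCI libraries Vehicle-CCI 4, TD-CCI 3, TCF-CCI 2 and TCF-CCI 5 overlapped sham, and all 5 of TNF-CCI were above it, as in 2.59% of all genes tested. Ctss rose by 0.66 ± 0.16 on the log2 scale (edgeR adjusted p = 0.0267), with 0.76 when Vehicle-sham 2 was left out (0.0625). Cathepsin Z (Ctsz, chromosome 3, 163224875 to 163235645) is a carboxypeptidase. Ctsz read 6.08, 12.1, 3.98, 6.06 and 10.5 CPM in Vehicle-sham 1 to 5. Ctsz in Vehicle-CCI read 42, 16.5, 9.29, 13.2 and 14.9 CPM, and in TD-CCI 28.9, 14.8, 19.3, 23 and 20.7 CPM. Ctsz in TCF-CCI read 22, 7.67, 22.2, 10.3 and 8.6 CPM, and in TNF-CCI 34.5, 21.2, 16.9, 12.6 and 29.8 CPM. Vehicle-CCI 1 stood above all others, and 1 Vehicle-CCI and 3 TCF-CCI libraries overlapped sham. Ctsz rose more than any of the 38 but Laptm5 by its estimate, at 1.31 ± 0.33 (edgeR adjusted p = 0.0301), and had 1.54 without Vehicle-sham 2 (0.0639).

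Cathepsin H (Ctsh, chromosome 8, 90608941 to 90627824) is an aminopeptidase. Ctsh read 43.2, 60.7, 36.4, 46.2 and 50.4 CPM in Vehicle-sham 1 to 5. Ctsh in Vehicle-CCI read 108, 71.6, 57.2, 57.3 and 70.3 CPM, and in TD-CCI 67.8, 64.6, 59.7, 74.4 and 60.4 CPM. Ctsh in TCF-CCI read 74, 42.9, 68.6, 63.3 and 40.4 CPM, and in TNF-CCI 98.6, 72.6, 66, 89.3 and 83.6 CPM. The highest sham value, that of Vehicle-sham 2, exceeded 6 of the CCI libraries; without it 18 of 20 lay above sham. Ctsh rose by 0.54 ± 0.15 on the log2 scale (edgeR adjusted p = 0.0393) and had 0.68 without Vehicle-sham 2 (0.0625). Cathepsin A (Ctsa, chromosome 3, 153569106 to 153574983) is a carboxypeptidase that also protects beta-galactosidase and neuraminidase from breakdown. Ctsa read 53.9, 34.5, 48.9, 58.4 and 55.7 CPM in Vehicle-sham 1 to 5. Ctsa in Vehicle-CCI read 83.1, 85, 54.6, 73.9 and 67.5 CPM, and in TD-CCI 89.4, 72.6, 74.1, 83.8 and 86.8 CPM. Ctsa in TCF-CCI read 89.4, 47.3, 79.8, 55.3 and 64.2 CPM, and in TNF-CCI 90.7, 59.3, 73.5, 63.2 and 104 CPM. Vehicle-sham 2 was the lowest of all libraries, and Vehicle-CCI 3, TCF-CCI 2 and TCF-CCI 4 did not exceed the highest sham value. Ctsa rose by 0.57 ± 0.15 on the log2 scale (edgeR adjusted p = 0.0328), with 0.49 when Vehicle-sham 2 was left out (0.111). The 5 proteases that did not pass all lay above 0. They were Ctsb (0.58 ± 0.28, edgeR adjusted p = 0.196), Tpp1 (0.5 ± 0.16, 0.059), Ctsf (0.38 ± 0.15, 0.119), the bone and fibroblast protease Ctsk (0.24 ± 0.17, 0.388) and Ctsl (0.01 ± 0.16, 0.973). Ctsl averaged 147 ± 45.1 CPM in sham (SD, n = 5) and 149 ± 27.8 CPM in CCI (n = 20), and the sign of its difference changed with the scaling.

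Of the glycosidases, beta-glucuronidase (Gusb, chromosome 12, 26701191 to 26714718) trims glucuronic acid from glycosaminoglycans. Gusb read 4.7, 5.4, 4.73, 4.66 and 4.12 CPM in Vehicle-sham 1 to 5. Gusb in Vehicle-CCI read 11.2, 8.94, 6.35, 5.2 and 5.81 CPM, and in TD-CCI 8.69, 6.71, 7.69, 7.32 and 7.69 CPM. Gusb in TCF-CCI read 8.4, 5.34, 7.55, 4.93 and 5.11 CPM, and in TNF-CCI 10, 6.53, 6.13, 6.91 and 9.21 CPM. Vehicle-CCI 4 and TCF-CCI 2, 4 and 5 lay below Vehicle-sham 2 and above the other sham libraries. Gusb rose by 0.62 ± 0.17 on the log2 scale (edgeR adjusted p = 0.0358) and had 0.7 without Vehicle-sham 2 (0.0757). Naglu (chromosome 10, 86001545 to 86009049) removes N-acetylglucosamine from heparan sulfate. Naglu read 9.69, 6.14, 9.43, 9.16 and 11 CPM in Vehicle-sham 1 to 5. Naglu in Vehicle-CCI read 17.7, 22.8, 9.67, 9.97 and 13.8 CPM, and in TD-CCI 18.7, 14.1, 14.1, 10.8 and 11 CPM. Naglu in TCF-CCI read 18.5, 11.9, 12.7, 11.1 and 11.6 CPM, and in TNF-CCI 16.7, 15.8, 13.2, 12.8 and 17.3 CPM. Vehicle-sham 2 was lowest, and Vehicle-CCI 3 and 4 and TD-CCI 4 and 5 were no higher than Vehicle-sham 5. Naglu rose by 0.64 ± 0.18 on the log2 scale (edgeR adjusted p = 0.0392), with 0.56 when Vehicle-sham 2 was left out (0.146). The mannosidase Manba (0.46 ± 0.14, edgeR adjusted p = 0.0515) and beta-galactosidase Glb1 (0.51 ± 0.16, 0.0532) were just short of the threshold. Glb1 averaged 16 ± 4.73 CPM in sham (SD, n = 5) and 22.8 ± 3.54 in CCI (n = 20). The others ranged from Idua (0.5 ± 0.24, edgeR adjusted p = 0.199), Man2b1 (0.42 ± 0.21, 0.223), Gaa (0.37 ± 0.24, 0.36), Neu1 (0.36 ± 0.13, 0.0812) and Hexa (0.29 ± 0.13, 0.152) to alpha-galactosidase Gla, the only glycosidase below 0 (-0.22 ± 0.1, 0.194). In Idua, Man2b1, Glb1, Gaa, Neu1 and Hexa the difference was smaller without Vehicle-sham 2, at 0.27, 0.21, 0.36, 0.24, 0.26 and 0.19, and Gla was at -0.06.

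The sulfatases had values on both sides of 0. Galns (chromosome 19, 50628639 to 50662477) removes sulfate from keratan and chondroitin sulfate. Galns read 9.36, 3.64, 9.92, 9.39 and 10.8 CPM in Vehicle-sham 1 to 5. Galns in Vehicle-CCI read 24.1, 22.7, 12.4, 11.1 and 15.1 CPM, and in TD-CCI 21.9, 15.6, 15.9, 13.2 and 18.2 CPM. Galns in TCF-CCI read 23.6, 14.7, 16.7, 14.1 and 12.8 CPM, and in TNF-CCI 26.1, 15.7, 15.4, 15.6 and 20.7 CPM. All 20 CCI libraries were above all 5 sham libraries, which was so for 9 genes of all tested (0.0427%), and the separation did not depend on the low value of Vehicle-sham 2. Galns rose by 0.99 ± 0.22 on the log2 scale (edgeR adjusted p = 0.0222), and by 0.83 without that library (edgeR adjusted p = 0.0615). Ids lay on the other side of 0. It stood at 584, 1320, 560, 447 and 445 CPM in Vehicle-sham 1 to 5, and between 312 and 684 CPM in the 20 CCI libraries. The high value of Vehicle-sham 2 set the sham mean, the other 4 sham libraries overlapped the CCI libraries, and the difference did not pass (-0.62 ± 0.2, edgeR adjusted p = 0.0601). Without Vehicle-sham 2 it was -0.19 ± 0.17 (edgeR adjusted p = 0.64). Arsb, which acts on dermatan sulfate, stood at 0.23 ± 0.25 in log2 (edgeR adjusted p = 0.609).

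Among the genes of lipid breakdown and sterol export, Npc2 (chromosome 6, 104397239 to 104418161) encodes the soluble protein that hands cholesterol to the membrane transporter NPC1. Npc2 read 46.7, 86.7, 44.4, 54.8 and 66.7 CPM in Vehicle-sham 1 to 5. Npc2 in Vehicle-CCI read 194, 131, 88.6, 75.8 and 110 CPM, and in TD-CCI 113, 133, 84.3, 110 and 97.9 CPM. Npc2 in TCF-CCI read 113, 59.8, 103, 88.7 and 54 CPM, and in TNF-CCI 188, 140, 110, 130 and 160 CPM. All 5 TNF-CCI libraries were above every sham library, and Vehicle-CCI 4, TD-CCI 3, TCF-CCI 2 and TCF-CCI 5 were below Vehicle-sham 2. Npc2 rose by 0.9 ± 0.2 on the log2 scale (edgeR adjusted p = 0.0232). Without Vehicle-sham 2 the change was 1.1 ± 0.21 (edgeR adjusted p = 0.0447), with 18 of 20 CCI libraries above the remaining 4. Its partner Npc1 did not pass, at 0.34 ± 0.13 (edgeR adjusted p = 0.122), with 38.7 ± 7.43 CPM in sham and 49 ± 8.51 CPM in CCI. Psap, whose products assist sphingolipid hydrolases, had 0.47 ± 0.26 (edgeR adjusted p = 0.27), and the acid lipase Lipa 0.23 ± 0.12 (0.236). The ceramidase Asah1 (0.05 ± 0.12, edgeR adjusted p = 0.823) and the thioesterase Ppt1 (-0.16 ± 0.12, 0.446) were the closest to 0 of this group.

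Of the membrane proteins, Laptm5 (chromosome 5, 143087759 to 143109807), found mainly in blood-derived cells and microglia, had the largest difference of all 38. Laptm5 read 11.2, 14.3, 7.51, 9.42 and 15 CPM in Vehicle-sham 1 to 5. Laptm5 in Vehicle-CCI read 63.6, 27.6, 14.5, 19 and 25.2 CPM, and in TD-CCI 36.8, 28.6, 25.6, 30.8 and 26.9 CPM. Laptm5 in TCF-CCI read 32.1, 13.3, 27.7, 17.1 and 15.7 CPM, and in TNF-CCI 53, 27.8, 25.6, 28.2 and 52.2 CPM. Vehicle-CCI 3 and TCF-CCI 2 lay within the sham range, and Vehicle-CCI 1, TNF-CCI 1 and TNF-CCI 5 were far above it. Laptm5 rose by 1.34 ± 0.28 on the log2 scale (edgeR adjusted p = 0.0222) and had 1.45 without Vehicle-sham 2 (0.06). Cd63, a tetraspanin of late endosomes and exosomes, was called where Vehicle-sham 2 was left out. Cd63 read 52.9, 122, 61.9, 62.5 and 67.4 CPM in Vehicle-sham 1 to 5. Cd63 in Vehicle-CCI read 110, 121, 131, 79.2 and 97.5 CPM, and in TD-CCI 85.7, 95.3, 74.4, 103 and 84.1 CPM. Cd63 in TCF-CCI read 85.8, 64.2, 85.1, 96.2 and 64.3 CPM, and in TNF-CCI 126, 144, 93.1, 113 and 117 CPM. Vehicle-sham 2 was higher than all but 3 of the CCI libraries, and the other 4 sham libraries were below 18 of them. With all libraries its difference was 0.41 ± 0.16 in log2 (edgeR adjusted p = 0.106), and without Vehicle-sham 2 it was 0.7 ± 0.13 (edgeR adjusted p = 0.0447). The structural glycoproteins of the lysosomal membrane and the receptor Scarb2 did not pass. Lamp1 had 269 ± 79.8 CPM in sham and 307 ± 65 CPM in CCI (0.18 ± 0.17, edgeR adjusted p = 0.541), Lamp2 had 303 ± 146 and 287 ± 69.6 CPM (-0.09 ± 0.2, 0.83), and the glucocerebrosidase receptor Scarb2 had 54.9 ± 19.8 and 69.9 ± 21.6 CPM (0.33 ± 0.22, 0.375). Without Vehicle-sham 2 Lamp1 was at 0.35 and Lamp2 at 0.24.

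Progranulin (Grn, chromosome 10, 87387672 to 87393777) is carried to lysosomes and cleaved there into granulins. Grn read 20.9, 6.87, 20.2, 21.3 and 28.6 CPM in Vehicle-sham 1 to 5. Grn in Vehicle-CCI read 59.3, 54.6, 23.4, 26 and 35.8 CPM, and in TD-CCI 48, 35, 43.1, 41 and 52.3 CPM. Grn in TCF-CCI read 51.5, 21.6, 42.2, 24.7 and 22.7 CPM, and in TNF-CCI 64.6, 29.4, 38, 30.3 and 69.9 CPM. Vehicle-sham 2 was the lowest library, at 0.302 of the mean of the other sham libraries, and Vehicle-CCI 3 and 4 and TCF-CCI 2, 4 and 5 overlapped those. Grn rose by 1.04 ± 0.28 on the log2 scale (edgeR adjusted p = 0.035), and had 0.85 without Vehicle-sham 2 (edgeR adjusted p = 0.122). Tfeb read 15.4, 5.96, 22.3, 16.9 and 13.8 CPM in Vehicle-sham 1 to 5 and from 12 to 24.2 CPM in CCI. Apart from the low value of Vehicle-sham 2 these ranges overlapped, and Tfeb did not pass (0.22 ± 0.19, edgeR adjusted p = 0.514; 0.04 without that library). Of the 13 genes that rose, all 13 had a promoter window, and Ctsd was the 1 with an E-box in it, where 6.42% of all windows had one. The other members with an E-box, Cd63, Ctsf, Gaa, Glb1, Idua and Lamp1, did not pass with all libraries. The part of E-boxes in these differences was not tested.

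**Figure D3:**
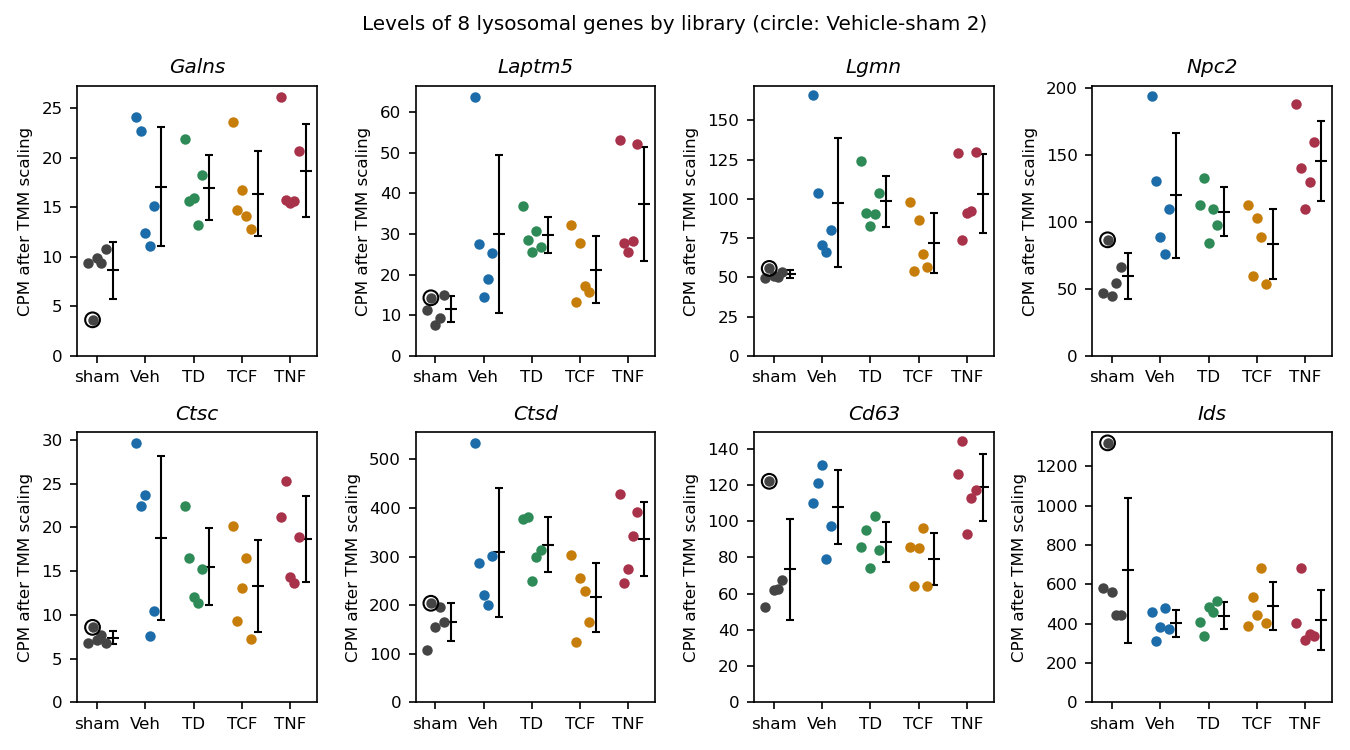
CPM of 8 of the genes in each library (points), by group, with the group mean and 1 SD beside them (n = 5); the axis starts at 0 and a circle marks Vehicle-sham 2. In Galns all 20 CCI libraries lie above sham, from 11.1 to 26.1 CPM against 3.64 to 10.8, while in Cd63 and Ids the circled library is far above the other sham libraries.

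Each CCI group was then set against sham. These 4 comparisons share the same 5 sham libraries, so that they are not independent, and their values are given side by side. In TNF-CCI 10 of the 38 genes rose and 0 fell, where 2.57% of all genes were called and 1.71% were called higher. An unadjusted p under 0.05 was reached by 19 of them and by 20% of all genes. Npc2 rose by 1.28 ± 0.25 on the log2 scale (edgeR adjusted p = 0.0198), Laptm5 by 1.7 ± 0.33 (0.0198) and Ctss by 0.97 ± 0.2 (0.0198). The other 7 were Lgmn (0.99 ± 0.22), Ctsc (1.34 ± 0.31), Galns (1.11 ± 0.26), Ctsh (0.79 ± 0.19), Ctsz (1.57 ± 0.39), Ctsd (1.02 ± 0.26) and Grn (1.24 ± 0.33), with edgeR adjusted p from 0.0234 to 0.0441. Cd63 had 0.69 ± 0.19 (edgeR adjusted p = 0.0518). The 10 calls were 0 when Vehicle-sham 4, TNF-CCI 1 or TNF-CCI 5 was left out, when Vehicle-sham 2 and 3 were left out together, 5 without Vehicle-sham 3 (0.817% of all genes), and 10 without Vehicle-sham 2 (1.35%), where Cd63 was called and Grn was not. TNF-CCI also had a mean depth of 38.3 M counts, against 30.9 M to 32.6 M in the other groups. Its median mitochondrial rRNA share was 3.29%, against 6.55% to 7.86%. With that share as a covariate 3 of the 38 were called (0.489% of all genes). The part of depth in the calls was not tested.

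In Vehicle-CCI, TD-CCI and TCF-CCI edgeR called 0 of the 38 genes, and 0%, 0% and 0.0142% of all genes. At an unadjusted p under 0.05 there were 20, 24 and 12 of the 38, against 12.7%, 16.5% and 18% of all genes. DESeq2 called 6, 7 and 1 of them (1.17%, 1.25% and 1.07% of all genes), and limma voom 0, 0 and 1 (0%, 0.00949% and 1.84%). The 38 genes had a median log2 fold change of 0.29 in TCF-CCI, 0.46 in TNF-CCI, 0.5 in Vehicle-CCI and 0.53 in TD-CCI. In turn for Vehicle-CCI, TD-CCI and TCF-CCI, Laptm5 stood at 1.39 ± 0.33, 1.37 ± 0.33 and 0.88 ± 0.32 (edgeR adjusted p = 0.135, 0.151 and 0.19). For Npc2 the values were 1 ± 0.24, 0.85 ± 0.24 and 0.48 ± 0.24 (edgeR adjusted p = 0.135, 0.156 and 0.292). Galns had close values in these groups, at 0.98 ± 0.26, 0.97 ± 0.26 and 0.92 ± 0.26 (edgeR adjusted p = 0.153, 0.151 and 0.154), and was the gene of smallest adjusted p among the 38 in TCF-CCI. Without Vehicle-CCI 4 edgeR called 8 of the 38 in Vehicle-CCI, and 1.72% of all genes. Counted by library, all 5 of TD-CCI lay above every sham library in 14 of the 38 genes (2.36% of all genes tested), and all 5 of TNF-CCI likewise in 14 (2.59%). For Vehicle-CCI this held in 4, Lgmn, Neu1, Galns and Npc1 (0.465%), and for TCF-CCI in 2, Naglu and Galns (1.73%). Of the 14 in TD-CCI, Ctsb, Tpp1, Glb1 and Npc1 were not among those of TNF-CCI, and Ctsh, Ctss, Naglu and Npc2 were among the 14 of TNF-CCI and not of TD-CCI.

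Differences between the CCI groups, with or without a supplement, were tested directly in 7 comparisons. In all 7 edgeR, DESeq2 and limma voom called 0 of the 38 genes, and edgeR called 0% of all genes. At an unadjusted p under 0.05 there were 7 of the 38 in TNF-CCI versus TCF-CCI, where 5.12% of all genes reached it. There were 2 each in TCF-CCI versus Vehicle-CCI (1.44% of all genes), TNF-CCI versus TD-CCI (2.45%) and TD-CCI versus TCF-CCI (1.91%). There were 0 in TD-CCI versus Vehicle-CCI (1.75%), TNF-CCI versus Vehicle-CCI (3.46%) and the mean of the 3 supplement groups versus Vehicle-CCI (1.89%). The 7 of TNF-CCI versus TCF-CCI were led by Npc2, at 146 ± 30 against 83.7 ± 26 CPM (SD, n = 5 each). Its log2 difference was 0.8 ± 0.24 (edgeR adjusted p = 0.907). Cd63 (0.58 ± 0.19), Ctss (0.56 ± 0.2), Ctsh (0.5 ± 0.19), Laptm5 (0.82 ± 0.32), Ctsd (0.64 ± 0.26) and Lgmn (0.52 ± 0.22) followed, with edgeR adjusted p from 0.937 to 0.953. TCF-CCI had the lowest mean CPM of the 4 CCI groups in 31 of the 38 genes, and TNF-CCI the highest in 17. The genes are not independent of each other, so these counts carry no test.

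**Figure D4:**
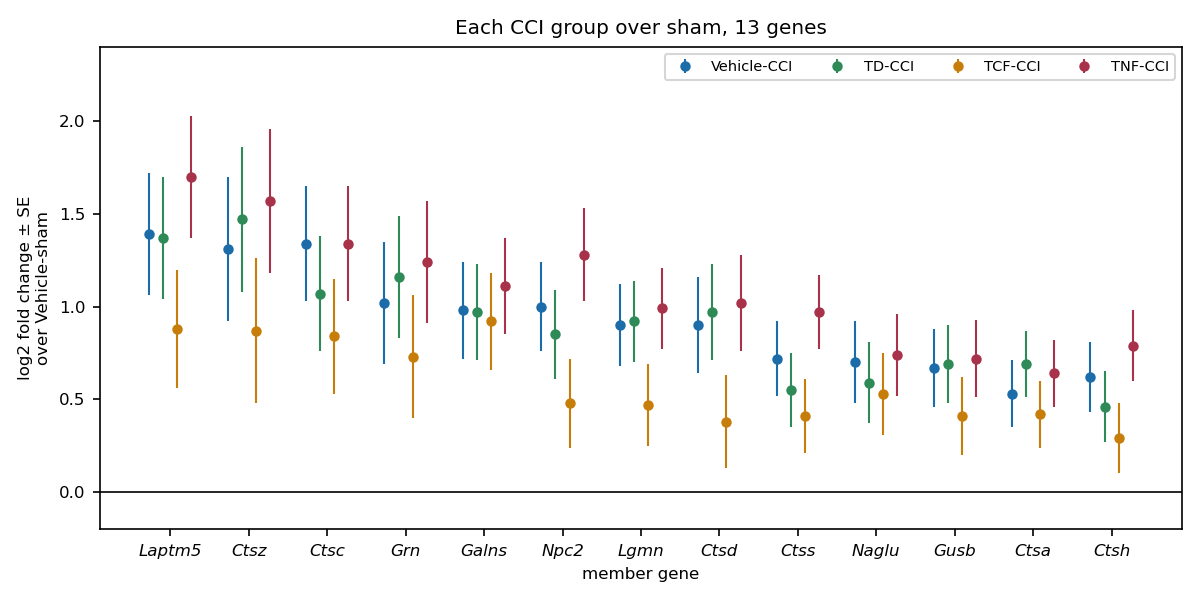
Log2 fold change over sham (vertical axis) with bars of 1 SE for the 13 genes called in the mean of the 4 CCI groups, in each of the 4 groups; all share the same sham libraries. TCF-CCI is the lowest of the 4 in each of the 13, and Galns has the closest values, from 0.92 to 1.11.

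Markers of other cell types were followed beside these genes. The summed CPM of 15 microglial markers ran from 235 to 407 in sham, 332 to 1000 in Vehicle-CCI, 447 to 646 in TD-CCI, 271 to 693 in TCF-CCI and 466 to 945 in TNF-CCI. With the 4 CCI groups averaged, 7 of the 15 rose against sham and 0 fell, all 15 lay above 0 and the median was 0.96. In that comparison 5.92% of all genes tested were called, and 2.24% were called higher. Of 10 genes of activated phagocytes 6 rose, with summed levels of 120 to 171 CPM in sham and 117 to 506 CPM in CCI. Lpl, the most abundant of them in sham, had a lower mean in CCI, at 66.3 ± 16.8 CPM in sham and 45.8 ± 13.3 CPM in CCI. The rest of that list had higher means in CCI. Of 10 astrocyte markers 1 rose, and of 12 neuronal markers 1 fell, all 12 being below 0 with a median of -0.27. Of 8 border macrophage markers 0 passed with edgeR, 2 being at an unadjusted p under 0.05. Of 8 monocyte and neutrophil markers tested 2 rose, with a median of -0.02. Their summed CPM was 11.3 to 15.8 in sham and 10.9 to 41.8 in CCI, above every sham library in 17 of 20 CCI libraries, the same number as for the microglial sum. Csf3r had the largest difference in CPM within that sum, at 6.32 ± 2.22 in sham and 14.9 ± 7.22 in CCI. Mean CPM was also higher in CCI for Cd14, Plac8 and Ly6g6c, and lower for Ccr2, S100a8, S100a9, Mpo and Camp. Among the other lists 2 of 7 fibroblast, 1 of 6 ependymal and 1 of 3 lymphocyte markers tested rose, and 1 of 7 red blood cell genes fell. Of the lymphocyte markers Cd8a was higher at very low levels, with 0.0749 CPM in sham and 0.501 in CCI. Cd3e was lower, with 2.46 and 0.834 CPM. The lymphocyte sum averaged 3.79 CPM in sham and 1.76 to 2.56 in the CCI groups, and 0 CCI libraries were above every sham library. For oligodendrocytes and their precursors, endothelium, pericytes and choroid plexus edgeR called 0, with 2, 1, 3, 0 and 0 at an unadjusted p under 0.05. The choroid plexus sum was uneven between libraries, with group medians of 21.9 to 34.4 CPM. It reached 3940 CPM in Vehicle-CCI 3, 555 in TCF-CCI 4, 382 in Vehicle-sham 1 and 225 in Vehicle-sham 2. Without Vehicle-sham 2 edgeR called 0 markers in each of these lists, with medians of 1.05 for microglia, 1.4 for activated phagocytes, 0.23 for astrocytes and -0.32 for neurons. No list summed to 0 in any group. The part of these cell types in the lysosomal differences was not tested.

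Within the 20 CCI libraries the lysosomal genes were set against a microglial marker level, the mean log2 CPM of the 15 markers, none of them one of the 38. This level ran from 3.85 in TCF-CCI 5 to 5.67 in Vehicle-CCI 1, and the model held the group means constant and used no sham library. Of the 38 genes 16 rose with it and 0 fell (edgeR adjusted p under 0.05), where 8.39% of all genes had a slope that passed and 6.71% a positive one. The median slope was 0.33 log2 units per unit of marker level for the 38 and -0.02 over all genes tested apart from the 15 markers. The steepest were Ctsz (1.1 ± 0.18), Laptm5 (1.02 ± 0.13), Grn (0.92 ± 0.13), Ctsc (0.87 ± 0.19), Npc2 (0.79 ± 0.09), Ctsd (0.78 ± 0.12), Lgmn (0.73 ± 0.09) and Galns (0.72 ± 0.09), with edgeR adjusted p from 4.54e-06 to 0.00617. Gusb, Naglu, Ctsh, Ctss, Manba, Man2b1, Ctsa and Glb1 passed with slopes from 0.33 to 0.62. Lamp1 (0.07 ± 0.16, edgeR adjusted p = 0.832), Psap (0.14 ± 0.26, 0.791), Ctsf (0.01 ± 0.14, 0.974), Arsb (-0.15 ± 0.26, 0.781) and Cd63 (0.24 ± 0.12, 0.222) did not pass. Without TCF-CCI 5 and Vehicle-CCI 1, the libraries farthest from the median marker level, 13 of the 16 were still called, and with a replicate block 7 were. Whether more microglia, more lysosomal RNA per cell or both moved with these genes was not tested, since bulk counts hold no cell numbers.

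**Figure D5:**
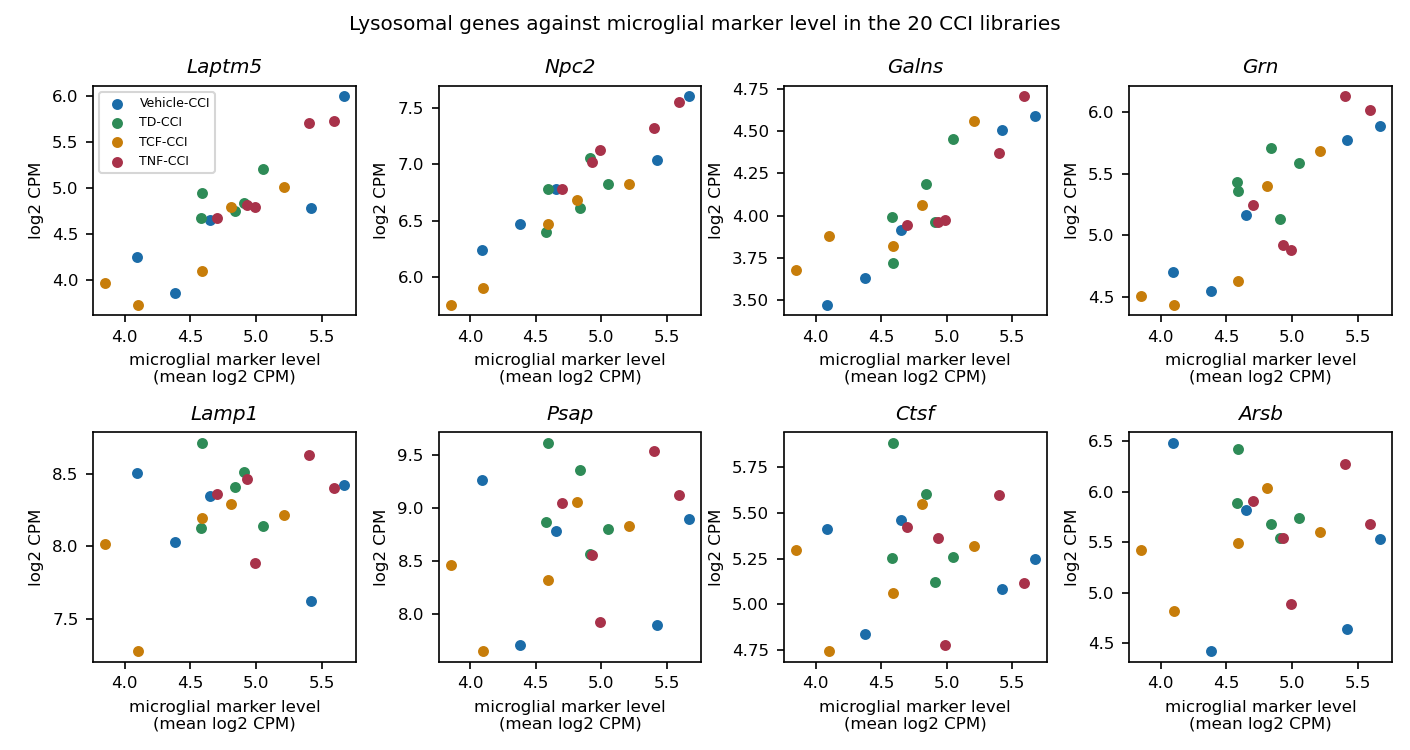
Log2 CPM of 8 of the genes (vertical axes) against the microglial marker level (horizontal axes, mean log2 CPM of 15 markers) in the 20 CCI libraries, coloured by group. Laptm5, Npc2, Galns and Grn climb with it, with slopes from 0.72 to 1.02, and Lamp1, Psap, Ctsf and Arsb spread without a slope that passed.

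Other lysosomal genes were read from lists beside the 38, with the CCI groups averaged and set against sham. Over all genes tested 5.92% were called in this comparison, and 2.24% were called higher. Of 19 genes tested for subunits of the V-ATPase, the proton pump that acidifies the lysosome, 1 rose and 3 fell, and 3 of the 19 lay above 0, with a median of -0.3. The subunits that fell were Atp6v1f (-0.76 ± 0.19, edgeR adjusted p = 0.0257), Atp6v1g2 (-0.43 ± 0.12, 0.0394) and Atp6v1d (-0.6 ± 0.17, 0.0416). Without Vehicle-sham 2 they were at -0.28, -0.28 and -0.52 and did not pass (edgeR adjusted p = 0.339, 0.253 and 0.192). Tcirg1, the pump subunit of osteoclasts and phagocytes, rose from 20.3 ± 8.8 to 48.6 ± 23.9 CPM (1.25 ± 0.35, edgeR adjusted p = 0.0384). Of 31 other hydrolases 5 rose and 0 fell, with a median of 0.18. Among those that rose were the heparan sulfatase Sgsh (1.15 ± 0.28), the carboxypeptidase Scpep1 (0.61 ± 0.15), galactosylceramidase Galc (0.56 ± 0.16) and the dipeptidyl peptidase Dpp7 (0.43 ± 0.13). Of 24 other membrane proteins 2 rose, Gpnmb (5.5 ± 3.85 CPM in sham, 48.6 ± 31.8 CPM in CCI; 3.07 ± 0.64) and Cd68 (1.31 ± 0.541 and 6.75 ± 4.35 CPM; 2.28 ± 0.5), both with an edgeR adjusted p = 0.0222. Both are known from phagocytes.

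Of 22 genes that sort proteins to the lysosome 1 fell and 0 rose, with a median of 0.08. In the same comparison 5.92% of all genes tested were called. The sorting gene that fell was the retromer subunit Vps29, at 184 ± 59.9 CPM in sham and 104 ± 18.2 CPM in CCI (-0.83 ± 0.14, edgeR adjusted p = 0.0103). Of 6 cathepsin inhibitors tested 1 fell, the cystatin Cst6 (-0.74 ± 0.18, edgeR adjusted p = 0.0246), and Serpinb1a was at 0.94 ± 0.34 without passing (0.091). Of 20 genes of the MiT/TFE family and lysosomal nutrient sensing Tfec, a relative of Tfeb expressed in macrophages, was the 1 that rose, at low levels of 0.303 ± 0.259 CPM in sham and 1.81 ± 1.42 CPM in CCI (2.54 ± 0.69, edgeR adjusted p = 0.0358). Lamtor2, of the complex that anchors mTORC1 signalling to the lysosome, had -0.46 ± 0.17 (edgeR adjusted p = 0.0914). Of 21 autophagy genes edgeR called 0, with 5 at an unadjusted p under 0.05, among them Gabarapl2 (-0.38 ± 0.13, edgeR adjusted p = 0.0666) and Atg3 (-0.45 ± 0.15, 0.0673). Without Vehicle-sham 2 none of the genes of these 7 lists was called with edgeR. The medians were then -0.28 for the proton pump and 0.27 for the other hydrolases. Atg3 was at -0.1, Lamtor2 at -0.22, Gabarapl2 at -0.24 and Vps29 at -0.59 (edgeR adjusted p = 0.732, 0.577, 0.388 and 0.06). Gpnmb had 2.98, Cd68 2.15, Tcirg1 1.04, Sgsh 1.02, Cst6 -0.69 and Tfec 2.72, with edgeR adjusted p from 0.0666 to 0.145.

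The authors' deposited tables, made with DESeq2, gave the 4 groups over control. In the authors' deposited table for Vehicle-CCI 1 of the 38 genes was called higher, Ctsc (1.34, adjusted p = 0.0425), with 0.326% of all genes called. In the authors' deposited table for TCF-CCI it was Galns (0.93, adjusted p = 0.0419), with 2.24% of all genes called. The authors' deposited tables for TD-CCI and TNF-CCI called 13 of the 38 each, all higher, with 2.34% and 3.53% of all genes called. No member was called lower in any of the authors' deposited tables.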

How the data were processed

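The authors deposited 1 table of read counts per gene for the 25 libraries, as whole numbers with no normalisation, per the file headers. Per the submitters' processing notes, featureCounts, STAR, DESeq2 and Salmon were used with the build mRatBN7.2; no versions are given. Whether strand was used in counting is not stated, which leaves overlapping and antisense genes uncertain. A second kind of deposited table, 1 for each CCI group, holds log2 fold changes over control with p-values before and after adjustment, made by the authors with DESeq2 per the file headers. The 38 genes, the gene lists and the tests were chosen with earlier results of these data known.

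Of 34322 genes, 7 with empty cells were left out. Counts were tested with edgeR 4.0.16 in R 4.3.3 by a quasi-likelihood F test with robust dispersions, TMM factors and filterByExpr. The 5 group means were fitted over all 25 libraries together, 12 comparisons were taken from that model, and p-values were adjusted by Benjamini-Hochberg over the 21064 genes tested, with a threshold of 0.05. CPM, RPKM, means and SD were computed from the counts. Fold changes are log2 with their SE, the first-named group over the second. Totals of 27.3 to 44.9 M counts (M, 1e6) leave counting error small beside the spread between libraries: the variance between 2 libraries of a group was 24.8 to 732 times that of counting, so no 2 agreed within sampling noise. That figure covers counting error only, since PCR copies of 1 molecule may be counted more than once. The slope on the microglial marker level was fitted in the 20 CCI libraries. Library values were printed for genes called over sham, and from each pathway list the called genes and the 2 of smallest p were named, except 1 called gene that is not reported here. Alternatives were DESeq2 1.42.0, limma 3.58.1 voom with sample quality weights, DESeq2 size factors, no filter or a filter at 1 CPM in 5 libraries, a replicate block, the number in each title or the mitochondrial rRNA share as a covariate, a fit of only the compared groups, and leaving out libraries. The code was checked on simulated counts. Promoter sequences are from RefSeq (GRCr8), on another build than the counts, and no coordinates were carried between them.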

Additional observations from a re-analysis of the deposited data

Results flagged for a closer look

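In 17 of 190 groups of 5 libraries (each of the 38 genes in each group) the highest or lowest library stood apart from the others, with a gap over 0.71 of the group's range; chance gives about 1 in 20. In the sham group the library was Vehicle-sham 2 each time. It was low for Tpp1 (22.5 CPM, the next 43.5), Glb1 (7.56, the next 17.6), Man2b1 (15.3, the next 58.3), Galns (3.64, the next 9.36) and Npc1 (25.8, the next 39.7). It was high for Gla (35.5 CPM, the next 26), Ids (1320, the next 584), Ppt1 (90.2, the next 62.7) and Cd63 (122, the next 67.4).

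Vehicle-CCI 1 was high for Ctsh (108 CPM, the next 71.6), Ctsz (42, the next 16.5) and Laptm5 (63.6, the next 27.6), and Vehicle-CCI 4 for Npc1 (64.8, the next 49.1). TCF-CCI 1 was high for Naglu (18.5 CPM, the next 12.7) and Tfeb (21.5, the next 14.6). TNF-CCI 2 was high for Ids (683 CPM, the next 404) and Asah1 (102, the next 75.3).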

How the results depend on the processing

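The 13 calls in the mean of the 4 CCI groups were all kept with DESeq2, limma voom, DESeq2 size factors, both filters and the title number as a covariate. A fit of only the groups compared is no separate check here, because this comparison uses every group and the fit is the same. The genes of the 38 called were 3 with the covariate for the mitochondrial rRNA share (2 of them among the 13), 0 without Vehicle-sham 2 and 3, and from 2 (without Vehicle-sham 2, 1 of them among the 13) to 17 (without Vehicle-CCI 4) when 1 library was left out. Leaving out 1 library gave 0 to 8 in Vehicle-CCI, 0 in TD-CCI and TCF-CCI, 0 to 14 in TNF-CCI, 0 in the 7 comparisons between CCI groups, and 12 to 17 for the slope on the microglial marker level. In Vehicle-CCI DESeq2 called 6 and the title number as a covariate 1. In TD-CCI DESeq2 called 7 and a fit of only the compared groups 3. In TCF-CCI DESeq2 and limma voom called 1 each. In TNF-CCI the mitochondrial covariate gave 3, a fit of only the compared groups 5, and the fit without Vehicle-sham 2 and 3 gave 0. The causes were not tested.

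Over all genes edgeR called 1248 in the mean of the 4 CCI groups, against 2414 with DESeq2, 2515 with the title number, 2070 without a filter and 168 with the mitochondrial covariate. In TNF-CCI the 542 became 1455 with DESeq2, 1527 with the title number, 969 with limma voom, 197 with only the compared groups and 103 with the mitochondrial covariate. Where edgeR called 0 or 3, DESeq2 called 226 in TCF-CCI, 247 in Vehicle-CCI and 263 in TD-CCI, and limma voom 388 in TCF-CCI. The sign turned in 5 of the 38 genes, none of them called. Ctsl was at -0.01 with DESeq2 size factors and DESeq2, 0 with the filter at 1 CPM, and from -0.12 to 0.2 with 1 library left out. Lamp2 was at 0.22 with limma voom, 0.02 with the title number, 0.33 with the mitochondrial covariate, 0.46 without Vehicle-sham 2 and 3, and from -0.24 to 0.24 (without Vehicle-sham 2) with 1 library left out. Ppt1 was at 0.01 without Vehicle-sham 2 and 3 and from -0.21 to 0.03 (without Vehicle-sham 2) with 1 library left out, Arsb at -0.01 with the mitochondrial covariate, and Asah1 between 0 and 0.12 with 1 library left out.

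Libraries of the same replicate number in different groups had a median correlation of deviations of 0.152 (from -0.416 to 0.523), against -0.0391 for other numbers. For the same number 31 of 50 pairs were over 0.1, and 10 of 25 libraries correlated best with their own number. Whether the numbers stand for a pairing is not given in the labels and was not settled by these values. With a replicate block 17 of the 38 genes were called in the mean of the 4 CCI groups, 15 in TNF-CCI, 2 in TD-CCI (Laptm5 and Lgmn), 0 in Vehicle-CCI and TCF-CCI, and 7 on the slope. The all-gene counts were 1863 in the mean, 1190 in TNF-CCI and 45 in TD-CCI.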
